A study of Sus scrofa with 6 samples.

Results

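The genes examined here are CPT1A, CPT2, ACADVL, ACADM, ECHS1, HADH, HADHA and HADHB, which encode enzymes of mitochondrial fatty acid oxidation, and PPARA, a nuclear receptor of the same pathway. They were chosen by symbol, and all 9 were found among the 31908 gene IDs of the deposited table, each under 1 Ensembl pig gene ID. The experiment compared IPEC-J2 cells, a non-transformed epithelial line from the jejunum of the newborn pig, given PBS (CON) with the same cells treated with CDCA, the primary bile acid chenodeoxycholic acid. Both treatments lasted 24 h, and RNA was sequenced from 3 libraries per group. The labels do not say whether the replicates were separate cultures, so the p-values measure only the spread between these libraries.

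Long-chain fatty acids are activated to acyl-CoA and carried into the mitochondrion as carnitine esters, which CPT1 forms at the outer membrane and CPT2 turns back to acyl-CoA inside. The acyl chain is then shortened in repeated rounds of dehydrogenation, hydration, a further dehydrogenation and thiolysis, each of which releases acetyl-CoA. CPT1 is the step that malonyl-CoA inhibits, and PPARα is a fatty acid sensor that activates transcription of many of these genes in liver and intestine.

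Values are TPM, the share of a transcript among all transcripts per unit of length, summed over the listed transcripts of each gene ID. The authors give the reads of each library, but no counts per transcript were used, so counting error was not estimated. The listed TPM summed to between 351770 and 366073 per library, where a complete library would sum to 1000000, so the value of a gene covers its listed transcripts only. In CON libraries 13.8% to 15.0% of this sum came from mRNAs encoded by mtDNA, and in CDCA libraries 2.90% to 3.45%. Among epithelial markers, EPCAM, KRT8 and KRT18 were expressed, at a sum of 410 to 422 TPM in CON and 418 to 459 TPM in CDCA over the 5 markers matched, whereas CDH1 and VIL1 had means under 1 TPM. EPCAM (log2 fold change 0.39, limma FDR 0.0015) and KRT18 (0.19, limma FDR 0.013) rose, and KRT8 (-0.12, limma FDR 0.18) did not pass. The summed markers of fibroblasts (4 genes), endothelium (2 genes) and hepatocytes (2 genes) lay between 1.27 and 2.56 TPM in CON and between 0.97 and 1.84 TPM in CDCA, and each of the 3 sums was lower in every CDCA library than in every CON library. In these lists PECAM1 (log2 fold change -0.39, limma FDR 0.025) and APOA1 (-0.45, limma FDR 0.015) fell, and the other genes had means under 1 TPM. The summed immune markers (3 genes) lay between 0.41 and 1.32 TPM in CON and between 4.85 and 5.97 TPM in CDCA, owing to CD68, while the pan-leukocyte gene PTPRC was listed at 0 or 0.01 TPM. The part of these marker differences in the results was not tested.

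Compared with the CON group, CPT2, HADHA and CPT1A were lower in the CDCA group. CPT2 fell to 0.6 of its CON level, and HADHA and CPT1A fell to 0.856 and 0.812. The other 4 tested genes, ECHS1, ACADVL, HADHB and ACADM, did not pass the test, and HADH and PPARA were listed at too low a level to be tested. Genes were tested by limma on log2(TPM + 1) when their mean over the 6 libraries was at least 1 TPM, and a gene passed at a Benjamini-Hochberg FDR under 0.05 over the 8708 genes tested. The added 1 TPM shrinks the fold changes of genes with low TPM. In bulk RNA, fewer cells that express a gene and less of its RNA per cell cannot be told apart.

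By this test 3 of the 7 tested genes (42.9%) were lower in CDCA and 0 were higher, where 23.9% of all tested genes were lower and 29.3% were higher. At an unadjusted p under 0.05 the counts were also 3 lower and 0 higher. When a log2 fold change over 1 in size was required as well, 0 of the 7 were called by limma in either direction, against 3.51% of all tested genes called higher and 3.90% called lower. The CON and CDCA libraries did not overlap for 3 of the 7 genes, against 61.5% of all tested genes. The median log2 fold change of the 7 genes was -0.05, and that of all tested genes was 0.05, with quartiles of -0.28 and 0.36. The median of the 7 genes lay between -0.16 and 0.04 with 1 library left out, above 0 without CDCA replicate 1 only, and was -0.175 with the most abundant transcript used for each gene.

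**Figure D1:**
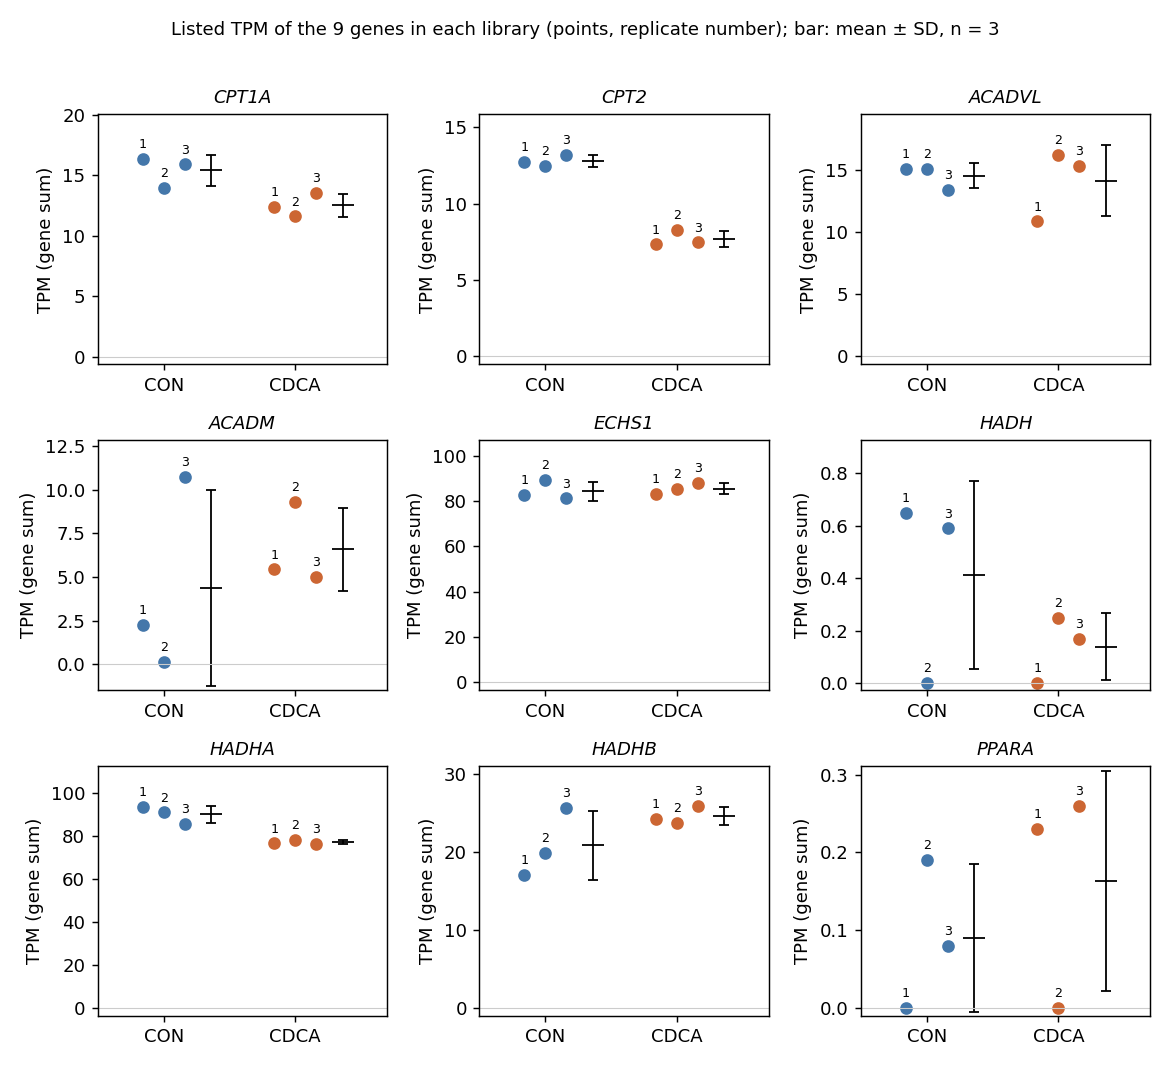
TPM (linear axis, gene sum) of the 9 genes in each CON (blue) and CDCA (orange) library, numbered by replicate, with the mean and SD of 3 libraries in black. CPT2 has the lowest ratio of CDCA to CON among the 7 tested genes, at 12.4 to 13.2 TPM in CON and 7.33 to 8.25 TPM in CDCA, and ACADM has the widest spread within CON, from 0.13 to 10.7 TPM.

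By the mean TPM over the 6 libraries, the order of the levels was ECHS1 (mean 85.0), HADHA (83.6), HADHB (22.7), ACADVL (14.3), CPT1A (13.9), CPT2 (10.2), ACADM (5.48), HADH (0.277) and PPARA (0.127). The first pair changed places between the groups, since HADHA was above ECHS1 within each of the 3 CON libraries (means 90.1 and 84.4), with ranges that overlapped, and each ECHS1 value lay above each HADHA value in CDCA. ACADVL and CPT1A overlapped in both groups, with CPT1A the higher by mean in CON (15.4 against 14.5), as did HADH and PPARA. CPT2 and ACADM overlapped in CDCA only, and ACADM and HADH in CON only. ECHS1 and HADHA stood at the 94.2 and 94.1 percentile of level among the tested genes, and ACADM stood at the 42.7 percentile. Summed over the 9 genes, the level was 240.4, 242.0 and 246.5 TPM in CON and 220.3, 233.3 and 232.1 TPM in CDCA, a sum made up mostly of ECHS1 and HADHA.

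Of the carnitine shuttle genes, CPT2 (ENSSSCG00000003851) encodes the enzyme of the inner mitochondrial membrane that returns acyl groups from carnitine to CoA. It was listed at 12.8, 12.4 and 13.2 TPM across CON and 7.33, 8.25 and 7.46 TPM across CDCA. The highest CDCA value was under the lowest CON value, by a gap wider than the spread within either group. The mean fell from 12.8 ± 0.38 to 7.68 ± 0.50 TPM (mean ± SD, n = 3 each). The log2 fold change was -0.67 (SE 0.065, limma FDR 0.00023, 95% interval -0.83 to -0.51), which placed CPT2 at the 9.3 percentile of fold changes among all tested genes. Leaving out any 1 library kept the estimate between -0.72 and -0.64.

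Most of the fall of CPT2 lay in its most abundant transcript, which made up 88.6% of the gene's TPM. That transcript was listed at 11.3, 10.7 and 12.5 TPM across CON and 6.33, 7.09 and 6.45 TPM across CDCA, a ratio of 0.575. The second transcript was listed at 0.5, 1.75 and 0 TPM across CON and 0.75, 1.16 and 1.01 TPM across CDCA, and these values overlap.

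CPT1A (ENSSSCG00000012880), which encodes the outer membrane enzyme that commits long-chain acyl groups to oxidation, was listed at 16.3, 14.0 and 15.9 TPM across CON and 12.4, 11.6 and 13.5 TPM across CDCA. The groups did not overlap, although the lowest CON library and the highest CDCA library were close. Its log2 fold change was -0.28 (95% interval -0.48 to -0.08, SE 0.082, limma FDR 0.027). This call rested on single libraries, since the FDR was 0.077 without CON replicate 1, 0.075 without CON replicate 3, 0.071 without CDCA replicate 1 and 0.079 without CDCA replicate 2, with a log2 fold change between -0.34 and -0.23 over all 6 such fits. With no filter on low values the FDR was 0.059, and with the most abundant transcript used for the gene it was 0.055.

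The ratio of CPT1A to CPT2, formed after the values were seen, was 1.28, 1.12 and 1.2 in CON and 1.69, 1.41 and 1.81 in CDCA. The ranges did not overlap (p = 0.1 by a two-sided exact permutation test, which cannot go lower with 3 libraries against 3). Of the other CPT1 genes, picked after their values were seen, CPT1B, the muscle form, was listed at 0 to 0.22 TPM, and CPT1C at 0 TPM in all 6 libraries.

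**Figure D2:**
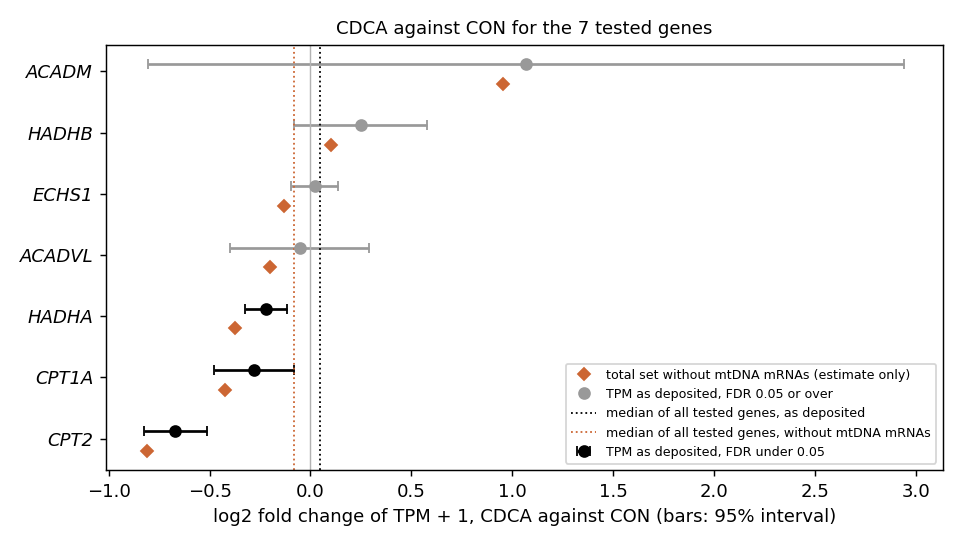
Log2 fold change of TPM + 1, CDCA against CON, for the 7 tested genes with 95% intervals from limma (black, FDR under 0.05; grey, FDR of 0.05 or over), and the estimate with library totals set without the mtDNA-encoded mRNAs (orange diamonds). The intervals of CPT2, CPT1A and HADHA lie below 0, and under the second scaling each estimate lies lower, as does the dotted median of all tested genes (0.05 against -0.08).

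HADHA and HADHB encode the alpha and beta subunits of the mitochondrial trifunctional protein, which carries out the hydration, the second dehydrogenation and the thiolysis of long acyl chains. HADHA (ENSSSCG00000008571), the subunit with the hydratase and dehydrogenase activities, was listed at 93.5, 91.1 and 85.8 TPM across CON and 76.6, 78.4 and 76.5 TPM across CDCA. The CDCA libraries lay close together and below each CON library. The mean fell from 90.1 ± 4.0 to 77.2 ± 1.0 TPM (mean ± SD, n = 3 each). On the log2 scale this was -0.22 (95% interval -0.32 to -0.12, SE 0.043, limma FDR 0.0052). Leaving out any 1 library kept the estimate between -0.25 and -0.19 (limma FDR 0.0033 to 0.023). The 2 abundant transcripts, which held 71.6% and 28.3% of the TPM, stood in CDCA at 0.834 and 0.916 of their CON means.

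HADHB (ENSSSCG00000008569), the thiolase subunit, was listed at 17.0, 19.8 and 25.7 TPM across CON and 24.3, 23.7 and 25.9 TPM across CDCA. CON replicate 3 lay among the CDCA libraries, while the other CON libraries lay below them. The log2 fold change was 0.25 (SE 0.14, limma FDR 0.17, 95% interval -0.08 to 0.58), and the gene did not pass. Without CON replicate 3 it was 0.40 (limma FDR 0.010), and without CON replicate 1 it was 0.12 (limma FDR 0.42), so the value rested on single CON libraries.

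Beneath the HADHB sum, its listed transcripts took different shares in different libraries. The most abundant transcript was listed at 12.7, 19.5 and 13.4 TPM across CON and 12.5, 14.9 and 11.98 TPM across CDCA, and the groups overlap. The second was listed at 2.45, 0 and 9.85 TPM across CON and 11.7, 8.48 and 11.3 TPM across CDCA, or 14.4%, 0% and 38.4% of the gene's TPM in CON and 48.4%, 35.8% and 43.7% in CDCA. CON replicate 2 was the library in which the second transcript was listed at 0 and the first was highest. With the most abundant transcript alone, the log2 fold change of HADHB turned to -0.175 (limma FDR 0.43).

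The ratio of HADHA to HADHB, also formed after the values were seen, was 5.50, 4.59 and 3.34 in CON and 3.16, 3.31 and 2.96 in CDCA. The lowest CON ratio and the highest CDCA ratio were nearly equal, though the ranges did not overlap (exact permutation test, two-sided, p = 0.1).

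**Figure D3:**
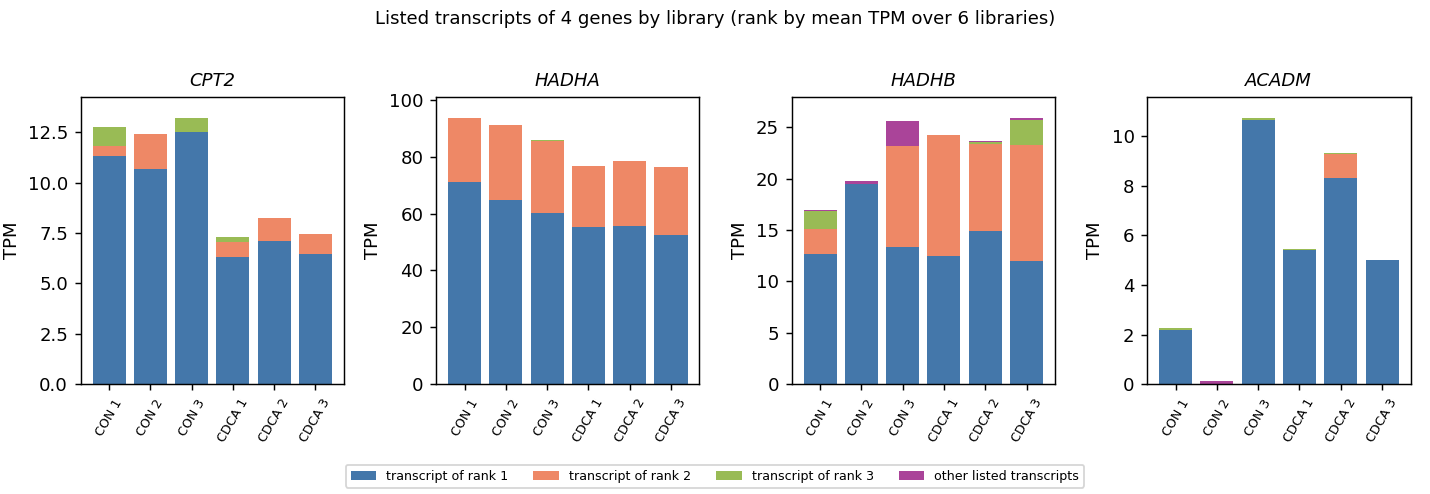
Stacked bars of TPM per listed transcript (linear axis) of CPT2, HADHA, HADHB and ACADM in the 6 libraries, with transcripts ranked by their mean TPM. The blue transcript of CPT2 and of HADHA is lower in each CDCA library than in each CON library, whereas the orange transcript of HADHB and the blue transcript of ACADM are both absent from the bar of CON replicate 2.

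ACADVL and ACADM encode acyl-CoA dehydrogenases, which start each round of oxidation on very-long-chain and medium-chain acyl-CoA. ACADVL (ENSSSCG00000017947) was listed at 15.1, 15.1 and 13.4 TPM across CON and 10.9, 16.2 and 15.3 TPM across CDCA. The groups overlapped, with CDCA replicate 1 the lowest of the 6 and the other CDCA libraries the highest. Its log2 fold change was -0.05 (95% interval -0.40 to 0.29, SE 0.14, limma FDR 0.77), and it was 0.11 without CDCA replicate 1.

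ACADM (ENSSSCG00000003776) was listed at 2.27, 0.13 and 10.7 TPM across CON and 5.44, 9.33 and 5.0 TPM across CDCA. The highest and the lowest of the 6 values were both CON libraries. Its spread within groups, an SD of 1.23 on the log2 scale, stood at the 98.9 percentile of all tested genes, whose median was 0.11. Its fitted log2 fold change was 1.07 (SE 0.78, limma FDR 0.29, 95% interval -0.81 to 2.94), an interval wide enough to hold both a fall and a rise. It moved to 0.25 (limma FDR 0.74) without CON replicate 2 and to 1.94 (limma FDR 0.022) without CON replicate 3, and with a pseudocount of 0.1 TPM it was 1.83 (limma FDR 0.26). Its most abundant transcript, with 95.9% of the gene's TPM, was listed at 0 TPM in CON replicate 2, as the second transcript of HADHB was. An exact 0 in such a table can be a failed estimate for that transcript.

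ECHS1 (ENSSSCG00000038086), the hydratase for short acyl chains, was listed at 82.7, 89.3 and 81.3 TPM across CON and 83.2, 85.6 and 88.0 TPM across CDCA. All CDCA values lay within the CON range. The log2 fold change was 0.02 (SE 0.048, limma FDR 0.75), with a 95% interval of -0.10 to 0.14. The ratio of ECHS1 to HADHA was 0.885, 0.981 and 0.947 in CON and 1.09, 1.09 and 1.15 in CDCA (exact permutation test, two-sided, p = 0.1), a ratio also chosen after the values were seen.

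HADH (ENSSSCG00000009150), the dehydrogenase for medium and short chains, was listed at 0.65, 0 and 0.59 TPM across CON and 0, 0.25 and 0.17 TPM across CDCA. PPARA (ENSSSCG00000000006) was listed at 0, 0.19 and 0.08 TPM across CON and 0.23, 0 and 0.26 TPM across CDCA. The groups overlapped for both genes, which had libraries at 0 on either side (exact permutation test, two-sided, p = 0.4 for HADH and p = 0.6 for PPARA). When the filter on low values was left out, limma gave a log2 fold change of -0.28 (FDR 0.45) for HADH and 0.09 (FDR 0.63) for PPARA. Of the 4 listed HADH transcripts, 3 were at 0 TPM in every library.

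The share of mtDNA-encoded mRNAs differed between the groups, so library totals were also set without those mRNAs. The median of all tested genes then moved by -0.13, to -0.08, and 221 genes were called higher and 462 lower, against 306 and 340 with the TPM as deposited. The genes that passed on FDR alone were then 1750 higher and 2781 lower, against 2550 and 2085. CPT2 (-0.81), CPT1A (-0.42) and HADHA (-0.37) remained lower, with limma FDRs of 7.7e-05, 0.0069 and 0.00036, and relative to the new median they lay at -0.73, -0.34 and -0.29. ECHS1 turned to -0.13 (limma FDR 0.049), or -0.05 relative to that median. HADHB (0.10, limma FDR 0.58), ACADVL (-0.20, limma FDR 0.26) and ACADM (0.96, limma FDR 0.35) still did not pass.

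Beyond the 9 genes, the wider pathway was described by 8 lists with 104 symbols, of which 96 were matched and 58 were tested. Of these, 15 (25.9%) rose and 15 (25.9%) fell by limma, and 28 did not pass, with a median log2 fold change of -0.06. Both shares were near those of all tested genes, 29.3% higher and 23.9% lower. With totals set without the mtDNA-encoded mRNAs, 11 of 59 tested (18.6%) rose and 22 (37.3%) fell, against 20.1% and 31.9% of all genes tested under that scaling.

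Among the other enzymes listed with mitochondrial oxidation, 16 were tested, of which 6 (37.5%) fell, 2 (12.5%) rose and 8 did not pass. Of all tested genes 23.9% fell and 29.3% rose, and the median log2 fold change of the list was -0.29. The list goes by enzyme type, with acyl-CoA hydrolases included, and not every entry is a step of fatty acid oxidation. All that passed are named here after their values were seen, with ACADSB, ACAD9, IVD, ETFDH, ACAA2 and ECI2 lower and ACAT1 and ACOT9 higher. The limma FDR was 0.045 for IVD and 0.048 for ACOT9. ACAT1, the mitochondrial acetoacetyl-CoA thiolase, was the 1 gene of this list called higher. It was listed at 48.2, 42.3 and 42.1 TPM across CON and 111, 107 and 119 TPM across CDCA, a log2 fold change of 1.33 (limma FDR 1.9e-05). The lowest CDCA library of ACAT1 was above the highest CON library by a gap wider than the range of either group. The thiolase ACAA2, picked after its values were seen, fell from 22.0 ± 0.88 to 14.6 ± 0.88 TPM (mean ± SD, n = 3 each), with a log2 fold change of -0.56 (limma FDR 0.0004). ETFDH, which passes electrons from these dehydrogenases to ubiquinone and was picked in the same way, had a log2 fold change of -0.34 (limma FDR 0.0023), while its partners ETFA (0.02) and ETFB (-0.10), picked with it, did not pass. ACAD10 (-0.94), DECR1 (-0.89) and ACADS (0.29) did not pass, with limma FDRs of 0.11, 0.21 and 0.53, and each rested on single libraries. DECR1 was at -1.52 (limma FDR 0.0058) without CON replicate 1. ACAD10 was at -1.32 (limma FDR 0.034) without CDCA replicate 2 and at -0.46 (limma FDR 0.17) without CDCA replicate 3. ACADS was at 0.016 without CON replicate 3, 0.087 without CDCA replicate 2 and 0.18 without CON replicate 1. The mean was under the limit for a test without CON replicate 2 for both DECR1 and ACADS, and without CON replicate 3 for DECR1.

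Genes listed for fatty acid activation, binding and uptake went both ways, with 3 lower (60%) and 2 higher (40%) of 5 tested. Of all tested genes 23.9% were lower and 29.3% higher, and 14 genes of the list had means under 1 TPM. ACSL1, a long-chain acyl-CoA synthetase, was listed at 11.7, 9.78 and 10.9 TPM across CON and 6.44, 4.79 and 5.66 TPM across CDCA (log2 fold change -0.83, limma FDR 0.001). FABP3, a fatty acid binding protein, fell from 838 ± 30.0 to 511 ± 15.0 TPM (mean ± SD, n = 3 each), and its relative FABP5 rose from 19.9 ± 1.0 to 35.9 ± 0.69 TPM (mean ± SD, n = 3 each). ACBD3, a Golgi protein with an acyl-CoA binding domain, rose with a log2 fold change of 0.64 (limma FDR 0.0012).

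In the carnitine list, 5 genes were tested, of which 2 (40%) fell and 0 rose by limma, against 23.9% and 29.3% of all tested genes. At an unadjusted p under 0.05 the counts were also 2 lower and 0 higher. CRAT, the acetyltransferase for short acyl groups, was listed at 9.06, 9.40 and 11.6 TPM across CON and 3.73, 6.33 and 4.2 TPM across CDCA (log2 fold change -0.96, limma FDR 0.0042). CRAT passed the limit for a call as lower without CON replicate 1 (-1.02) or CDCA replicate 2 (-1.14), with a pseudocount of 0.1 TPM (-1.09), with totals set without the mtDNA-encoded mRNAs (-1.09), with the listed TPM rescaled to 1000000 (-1.03) and with the most abundant transcript (-1.10). SLC25A20, the carrier that exchanges acylcarnitine for carnitine across the inner membrane between the CPT enzymes, had a log2 fold change of -0.21 (limma FDR 0.023). Its FDR was 0.08 without CON replicate 2, 0.056 without CON replicate 3, 0.08 without CDCA replicate 1 and 0.051 without CDCA replicate 3. TMLHE (0.16) and SLC25A29 (0.17) did not pass.

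Peroxisomal genes were tested for 8 entries, of which 3 (37.5%) rose and 0 fell by limma (3 and 1 at an unadjusted p under 0.05), with a median log2 fold change of 0.04. The share that rose was near the 29.3% of all tested genes, of which 23.9% fell. With only 8 entries, the difference from all tested genes was not tested. HACL1, of alpha-oxidation, was listed at 3.85, 3.16 and 3.82 TPM across CON and 6.14, 4.77 and 5.59 TPM across CDCA (log2 fold change 0.49, limma FDR 0.0095). With its most abundant transcript used for the gene, the FDR of HACL1 was 0.06. SCP2 (-0.13) and ACAA1 (-0.13) did not pass with the TPM as deposited, and passed as lower with totals set without the mtDNA-encoded mRNAs (limma FDR 0.0028 and 0.012) or with median-ratio scaling (limma FDR 0.017 and 0.048). SCP2 also passed as lower without CON replicate 3 (limma FDR 0.048).

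**Figure D4:**
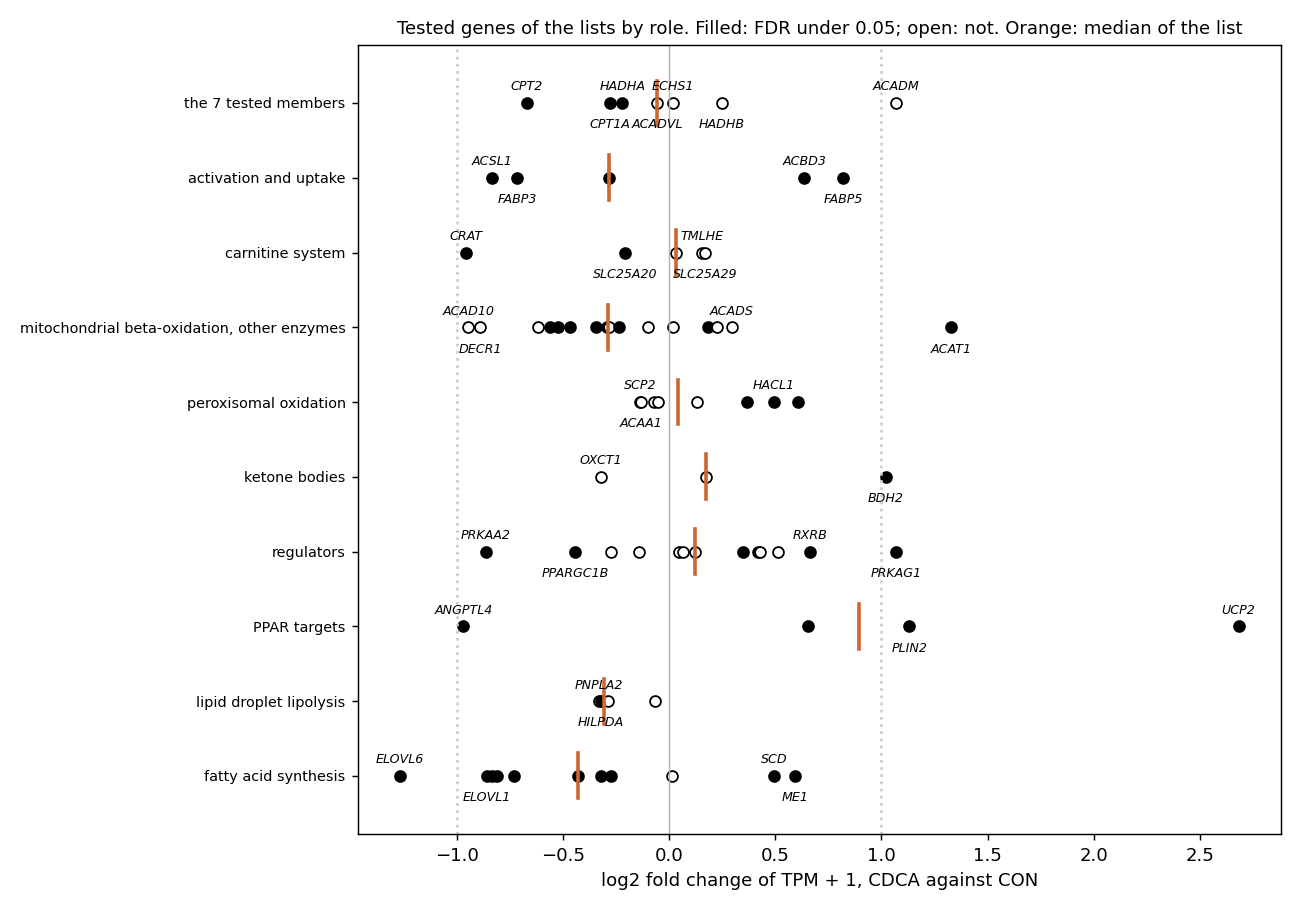
Log2 fold change of TPM + 1, CDCA against CON, for each tested gene of the 9 genes and of the lists by role (filled, FDR under 0.05 by limma; open, not), with the median of each list in orange and dotted lines at -1 and 1; some of the genes are labelled. The cell type markers are not shown. Among the genes shown, UCP2 (2.68) and ACAT1 (1.33) lie farthest to the right and ELOVL6 (-1.27) farthest to the left.

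Of the ketone body genes, 3 were tested and 1 rose (33.3%, against 29.3% of all tested genes). BDH2, a hydroxybutyrate dehydrogenase, was called higher (log2 fold change 1.02, limma FDR 0.0051). Without CON replicate 2 its log2 fold change was 0.81, and with totals set without the mtDNA-encoded mRNAs it was 0.89. It was also under the limit of 1 for a call with median-ratio scaling (0.976), with the most abundant transcript (0.992) and without CDCA replicate 3 (0.997), while its FDR stayed under 0.05 in each. OXCT1, which activates acetoacetate for use as fuel, did not pass (-0.32, limma FDR 0.20).

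Among 13 tested regulators, 4 (30.8%) rose and 2 (15.4%) fell, against 29.3% and 23.9% of all tested genes, with a median log2 fold change of 0.12. RXRB, a partner receptor of the PPARs, was listed at 5.28, 5.08 and 5.55 TPM across CON and 8.24, 9.51 and 9.26 TPM across CDCA (log2 fold change 0.66, limma FDR 0.00049). PRKAG1, a regulatory subunit of AMPK, rose from 1.84 ± 0.50 to 4.95 ± 0.96 TPM (mean ± SD, n = 3 each) and was called higher, while PRKAA2, a catalytic subunit, fell from 1.99 ± 0.20 to 0.663 ± 0.34 TPM (limma FDR 0.0025 and 0.0052). The other catalytic subunit listed, PRKAA1, picked after its values were seen, was more abundant, at means of 7.69 TPM in CON and 8.28 TPM in CDCA. It did not pass (log2 fold change 0.12, limma FDR 0.75). The log2 fold change of PRKAG1, 1.07, was 0.92 without CON replicate 3 and 0.96 without CDCA replicate 1 or with totals set without the mtDNA-encoded mRNAs, and 0.993 with its most abundant transcript. PRKAA2, not called at -0.86, was past the limit with a pseudocount of 0.1 TPM (-1.54), with the listed TPM rescaled to 1000000 (-1.23) and without CDCA replicate 1 (-1.02). The coactivator PPARGC1B had a log2 fold change of -0.44 (limma FDR 0.026), which did not pass without CON replicate 1, CON replicate 3 or CDCA replicate 3 (limma FDR 0.069, 0.079 and 0.076) or with no filter on low values (limma FDR 0.068).

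The list of PPAR targets had 4 tested genes, of which 3 rose (75%, against 29.3% of all tested genes) and 1 fell (25%, against 23.9%). UCP2, an anion carrier of the inner mitochondrial membrane, was listed at 7.98, 9.04 and 10.3 TPM across CON and 61.4, 66.1 and 63.1 TPM across CDCA, a ratio of 6.98 (log2 fold change 2.68, SE 0.087, limma FDR 4e-06). PLIN2, which coats lipid droplets, rose from 41.5 ± 2.5 to 92.1 ± 6.0 TPM (mean ± SD, n = 3 each). ANGPTL4, an inhibitor of lipoprotein lipase, fell from 2.79 ± 0.16 to 0.937 ± 0.086 TPM (mean ± SD, n = 3 each), with a log2 fold change of -0.97 (limma FDR 0.00031). It would have been called lower with a pseudocount of 0.1 TPM (-1.48), with the listed TPM rescaled to 1000000 (-1.26), with totals set without the mtDNA-encoded mRNAs (-1.06) or without CDCA replicate 2 (-1.002), and PLIN2, called higher at 1.13, was at 0.98 with totals set without those mRNAs. PDK4, picked after seeing its values, was listed at 0.13 to 0.36 TPM and was not tested. Of the 4 tested genes of the lipolysis list 1 fell (25%, against 23.9% of all tested genes). The list was not sorted into genes that drive and genes that oppose lipolysis, so this count gives no direction for it. HILPDA was lower (log2 fold change -0.32, limma FDR 0.02) and the others, with PNPLA2 at -0.33 (limma FDR 0.075), did not pass. PNPLA2 passed as lower without CON replicate 1 (-0.42, limma FDR 0.045) and with totals set without the mtDNA-encoded mRNAs (-0.47, limma FDR 0.019), and was at -0.20 (limma FDR 0.18) without CDCA replicate 1. The FDR of HILPDA was 0.06 without CON replicate 1 and 0.057 without CON replicate 2.

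Fatty acid synthesis, the opposite pathway, is given for comparison. Of 11 tested genes, 8 (72.7%) fell and 2 (18.2%) rose, against 23.9% and 29.3% of all tested genes, with a median log2 fold change of -0.43, whereas 3 of the 7 tested oxidation genes fell. The difference between these lists was not tested. ACACA, picked after its values were seen, was counted with the regulators under malonyl-CoA and not in the synthesis list. It did not pass (log2 fold change 0.51, limma FDR 0.15). ELOVL6, an elongase of long-chain fatty acids, was listed at 13.5, 13.9 and 13.9 TPM across CON and 5.32, 4.52 and 5.64 TPM across CDCA, and was the 1 gene of the list called lower (log2 fold change -1.27, limma FDR 4.6e-05). ELOVL1 had a log2 fold change of -0.86 (limma FDR 1e-05), and of -1.01 with totals set without the mtDNA-encoded mRNAs. ME1, the malic enzyme that makes NADPH, rose with a log2 fold change of 0.59 (limma FDR 0.0005). SCD, the desaturase, had one of 0.50 (limma FDR 0.029), which did not pass without CON replicate 3, CDCA replicate 1 or CDCA replicate 3 (limma FDR 0.064, 0.089 and 0.061) or with totals set without the mtDNA-encoded mRNAs (limma FDR 0.074) or no filter on low values (limma FDR 0.071).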

How the data were processed

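IPEC-J2 cells of the CON and CDCA groups (3 libraries each, 24 h) were profiled by RNA-seq. The authors deposited length-scaled transcript abundances (TPM) for 63041 listed transcripts, which their methods say were estimated with RSEM. The submitters' processing notes also name Bowtie 0.12.2 and the mouse build mm10, although the gene IDs are those of the pig, so no coordinates are given here. No counts were used, and the edgeR analysis of the authors' methods, which needs them, was not repeated.

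TPM was summed by gene ID (31908 IDs). Gene names came from the deposited table for 16719 IDs and from an Ensembl name table for 782 more. The 8708 genes whose average across the 6 libraries reached 1 TPM were compared on log2(TPM + 1) with limma 3.58.1 in R 4.3.3 (lmFit, then eBayes with a trend), the 6 libraries in 1 fit with no covariates. P-values were adjusted over all tested genes by the Benjamini-Hochberg method. A gene passed at an FDR under 0.05, and was called when its log2 fold change was also over 1 in size. Ratios, and genes under the limit, were compared by a two-sided exact permutation test, whose smallest p is 0.1. The fitting code was also run on simulated data with known fold changes. Far fewer genes changed in that run than here, so it checks the code and not the calls made here.

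The 9 genes and the lists were chosen with earlier results of these data known. Besides the 9 genes, the genes named from each list are those called and the 2 tested genes with the largest rise and the 2 with the largest fall; others are said to have been picked after their values were seen. Some genes that this rule names are not reported here. The alternatives were a replicate block, a pseudocount of 0.1 TPM, every gene without the filter, each library left out, 3 other scalings between libraries and the most abundant listed transcript in place of the sum. A rescaling of the listed TPM to 1000000 was added after the data were seen.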

Additional observations from a re-analysis of the deposited data

How the results depend on the processing

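CPT2 and HADHA passed as lower under all 14 alternatives. CPT1A stayed lower in all of them but missed the threshold in 6, as given with its values. Over the named genes and alternatives, 493 results kept their direction and side of the threshold, 24 no longer passed, 16 newly passed and 7 changed sign. The sign changed for ECHS1, which was -0.0307 with median-ratio scaling, -0.13 with totals set without the mtDNA-encoded mRNAs and between -0.0068 and 0.0606 with each library left out. It also changed for ACADVL, between -0.16 and 0.11 with each library left out, for HADHB, -0.175 with the most abundant transcript, and for SLC25A29, -0.0858 with that transcript. The causes were not tested. With each library left out, between 0 and 2 of the 9 genes passed as higher and between 0 and 1 were called higher, the upper values being HADHB and ACADM without CON replicate 3. The median of the tested genes among the 9 was -0.20 with totals set without the mtDNA-encoded mRNAs. Over all genes, 509 were called higher with a pseudocount of 0.1 TPM and 523 with the listed TPM rescaled to 1000000, the latter an alternative chosen after seeing the data, against 306, and 505 and 481 were called lower, against 340. Samples with the same replicate number did not deviate together (r = -0.0353, -0.0916 and -0.0509 across genes), so the numbers were not taken to pair them. With a replicate block, 0 of the 9 genes passed as higher and 3 as lower, as without it, and 309 genes were called higher and 343 lower. The FDR was then 0.022 for CPT1A, 0.003 for CPT2 and 0.016 for HADHA. With the block PPARGC1B did not pass (FDR 0.068) and PNPLA2 passed as lower (FDR 0.013). No counts per transcript were used, so the reads behind each TPM are not given, which limits what can be said of HADH and PPARA.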
